A study of Mus musculus with 12 samples.

Results

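The comparison described here is that of CD8+ T cells, the lymphocytes that kill infected and malignant cells, from Dock8 KO mice after 24 h in a collagen gel against the same kind of cells after 24 h in media. It rests on 6 of the 12 RNA-seq libraries of the study, 3 per condition, chosen by their labelled genotype and treatment. Cells of lymph node and spleen were activated and expanded in culture for 3 days before the 24 h in media or in bovine collagen at 2 mg/mL, so both groups carry the Dock8 KO genotype and both are activated. The gel group was taken back out of the gel before RNA extraction, and what this step did to transcripts cannot be told apart from the 24 h of migration. The other 6 libraries hold WT cells treated in the same 2 ways and serve only as the comparison for the size of a response. The labels give 3 mice per group, name neither their age nor the kind of Dock8 allele, and do not say whether a media and a gel library come from the same mouse.

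DOCK8 is an exchange factor that loads GTP onto CDC42, a small GTPase that starts actin assembly through WASP and the Arp2/3 complex. Lymphocytes use it to keep their shape while squeezing through tight spaces, and Dock8-deficient T cells are known to stretch and fragment when they migrate in confinement. Collagen gels are a common matrix in which T cells crawl with little help from integrins, deforming the nucleus as they pass through the pores.

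Values are CPM, the count of a gene scaled to a fixed library total by TMM, and changes are log2 fold changes of gel against media from edgeR's quasi-likelihood test. A gene was called where its p, adjusted over all 19010 genes tested by the Benjamini-Hochberg method, was under 0.05. The 6 Dock8 KO libraries held 37307525 to 61390702 counts. Dock8 itself had 126, 108 and 125 in media and 168, 161 and 158 CPM in gel in Dock8 KO cells. It had 362, 418 and 442 in WT media and 378, 410.2 and 449 CPM in WT gel, so every Dock8 KO library lay below every WT library. Which exons the knockout removes is not given, and the remaining counts cannot tell a truncated transcript from a whole one. Within Dock8 KO cells the residual Dock8 counts were higher in gel (log2 0.44, SE 0.09, adjusted p 0.00425). The CD8 coreceptor gene Cd8a lay at 634, 516 and 619.7 in media and 619.6, 561 and 604 CPM in gel. The receptor subunit gene Cd3e lay at 171, 169.7 and 193 in media and 178, 169 and 178 CPM in gel. Both overlapped between media and gel. Cd4, the coreceptor of helper T cells, was scarce but higher in every gel library, with 2.62, 2.79 and 3.71 in media and 3.85, 4.87 and 7.15 CPM in gel (adjusted p 0.0348). Of the 151 genes named, 49 share exonic bases with another annotated gene, mostly a predicted model or a small RNA. Whether the counting used strand is not given, so reads of such pairs cannot be told apart. Known neighbours are involved for Cdk2 (Pmel), Cdk4 (Tspan31), Ube2c (Tnnc2), Cxcl10 (Art3), Ddit3 (Mars), Ppp1r15a (Tulp2), Jun (Junos), Ddb2 (Acp2), Irf7 (Phrf1), Cd160 (Pdzk1), Fn1 (Apol7d), Itga4 (Cerkl) and Kcnq1ot1 (Kcnq1).

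The 3 gel libraries of Dock8 KO cells stood apart from the other 9 in reads outside ordinary genes. The 12 satellite-like gene models took 4807, 909 and 1926 CPM (unscaled) in them against 68.9 to 212 elsewhere, and the 1106 olfactory receptor genes took 20.9 to 32.8 CPM against 8.07 to 11.9. Gene models of the annotation class TEC, transcripts still awaiting experimental proof, took 0.232 to 0.257% of counts in gel and 0.129 to 0.218% elsewhere. Their part in the results was not tested, and 2 other fits cannot show it. They drop certain loci, or take the same level per exonic base off every gene. The latter was an alternative chosen after seeing the data. With satellite-like, rRNA-like and mitochondrial loci removed, 3889 genes were called, against 3962. With the olfactory receptor reads per exonic base, times the length of each gene, taken off the counts, 3806 were called. Sequences like ribosomal RNA made up 12.5% of the counts of Dock8 KO media library 3 and 18.96% of those of WT gel library 2. Without these 2 libraries 2050 genes were called. Without gel library 1, 2014 genes were called, without gel library 3 2439 and without media library 1 2441.

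In collagen, 2111 genes were higher (11.1% of those tested) and 1851 lower (9.74%). With the replicate number as a block in WT cells, whose spread enters the shared estimate, 3477 were higher and 3640 lower. Many of the higher genes were scarce ones: of the 4497 genes whose mean log2 CPM was below 0, 842 were higher and 25 lower, with a median log2 change of 0.42, where the same genes had a median near 0 in WT cells. Among the 9956 genes at log2 CPM 3 or above, the balance turned, with 639 higher (6.42%) and 1673 lower (16.8%) and a median of −0.08. Most of these falls were small, as 74 genes of that level fell at least 1.5-fold and 118 rose at least 1.5-fold. The split depended on the scaling: of the called genes 53.3% were higher with TMM, 69.6% with total counts alone and 74.4% with upper-quartile scaling. Protein-coding genes were called higher in 11.3% and lower in 11.7%, while gene models within introns on the sense strand were called higher in 27.5% of 149, and processed pseudogenes were called higher in 1.48% and lower in 10.2%.

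**Figure D1:**
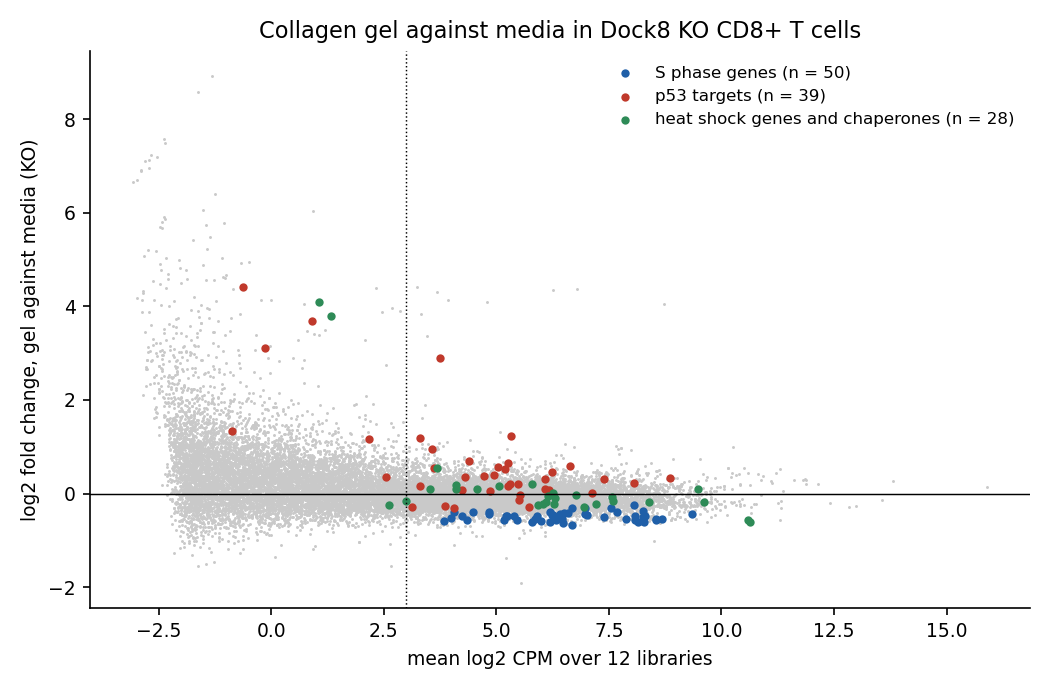
Log2 fold change of collagen gel against media in Dock8 KO cells (y axis) against mean log2 CPM (x axis) for all 19010 genes tested, with S phase genes in blue, p53 targets in red and heat shock genes in green; the lines mark no change and the level of log2 CPM 3. The cloud bends upward at low levels, S phase genes sit in a narrow band around the median of −0.48, and p53 targets reach log2 4.41 (Ddit4l).

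Genes of DNA replication fell together. Of 50 S phase genes, 49 were lower and the other 1 was not called. Their median log2 change was −0.48, against −0.08 for all genes at log2 CPM 3 or above. With 1 library left out at a time, 45 to 50 were lower. Cdt1, which loads the replicative helicase onto origins, had 64.6, 71.9 and 67.3 in media and 39.7, 49.9 and 45.4 CPM in gel (log2 −0.59, SE 0.08, adjusted p 0.000247). The helicase subunit gene Mcm6 had 336, 382 and 356 in media and 209.9, 258 and 240 CPM in gel (log2 −0.60, SE 0.10, adjusted p 0.0008403). Pcna, the sliding clamp of DNA polymerases, had 321, 332 and 323 in media and 197, 226 and 218 CPM in gel (log2 −0.61, SE 0.07, adjusted p 0.000145). In all 3 genes every gel library lay below every media library. The origin licensing gene Cdc6, with 83.3, 83.1 and 91.9 in media and 53.4, 62.4 and 58.2 CPM in gel, showed the same order. The fall also reached regulators. E2f8, a repressor that E2F factors themselves induce, changed by −0.66 (SE 0.11). Ccne1, the cyclin of S phase entry, changed by −0.47 (SE 0.05). Slbp, which binds the stem loop of histone transcripts, changed by −0.45 (SE 0.07).

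Histone transcripts moved in the same direction. Of 63 genes of the replication-dependent histone clusters, 59 were lower and 1 was higher, with a median of −0.51. With 1 library left out, 46 to 61 were lower. These genes are near copies of each other, so reads may be split among them and single values are uncertain. The linker histone gene H1f1 fell most, from 408, 481 and 407 in media to 213, 234 and 199 CPM in gel (log2 −1.003, SE 0.10, adjusted p 4.6e-05). The 1 member that rose was H2bc21, which can also be transcribed with a poly(A) tail outside S phase. It went from 8.21, 9.02 and 8.76 in media to 12.6, 13.3 and 13.7 CPM in gel (log2 0.61, SE 0.09, adjusted p 0.000519).

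The genes of G2 and mitosis were lower too, with a smaller median change. Of 44, 33 were lower and the others not called, with a median of −0.29. This count dropped to 15 with total counts as the scaling and to 20 without gel library 1. Aurkb, the kinase of the chromosomal passenger complex, went from 146, 138 and 143 in media to 96.4, 99.8 and 107 CPM in gel. Cdk1, the mitotic kinase, went from 139.9, 128 and 139 in media to 95.95, 102 and 105 CPM in gel. Neither gene overlapped between the groups. Of the G1 kinases, Cdk4 was lower (log2 −0.54, SE 0.11, adjusted p 0.00425), and so was Cdk2 (log2 −0.46, SE 0.06, adjusted p 0.000241). Cdca7, a chromatin factor gene of cycling cells, fell further (log2 −0.85, SE 0.19, adjusted p 0.00831).

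Promoters of these cell cycle genes hold known elements. They are shown for the called member of each list with the smallest p among those with a match. The sequences are the 250 bases before the RefSeq start on GRCm38.p6, read on the strand of the gene, with the matched letters in capitals. E2F elements were searched as TTTCCCGC and TTTGGCGC on both strands. The cell cycle homology region, which the DREAM complex binds, was searched as TTTGAA on both strands. Cdc6 lies on the plus strand (chr11:98907901-98908150) and holds an E2F match. Ube2c, the ubiquitin-conjugating enzyme of the anaphase-promoting complex, lies on the plus strand (chr2:164769679-164769928) and holds a homology region match.
Cdc6: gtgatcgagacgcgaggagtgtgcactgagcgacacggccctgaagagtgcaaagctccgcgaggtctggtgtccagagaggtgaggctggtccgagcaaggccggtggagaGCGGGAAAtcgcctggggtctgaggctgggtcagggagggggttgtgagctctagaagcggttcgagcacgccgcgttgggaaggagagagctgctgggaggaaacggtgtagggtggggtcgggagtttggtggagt
Ube2c: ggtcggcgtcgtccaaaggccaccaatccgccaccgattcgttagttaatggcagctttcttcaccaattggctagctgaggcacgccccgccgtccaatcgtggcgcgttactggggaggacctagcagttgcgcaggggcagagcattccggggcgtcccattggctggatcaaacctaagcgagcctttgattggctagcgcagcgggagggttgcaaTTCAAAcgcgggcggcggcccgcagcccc
Of the 52 promoters found for 43 S phase genes, 11.5% held an E2F match. The share was 2.38% of the 13798 promoters of all genes tested and 5.06% of those of all genes called lower. Of the 40 promoters of 37 G2 and mitosis genes, 37.5% held the homology region, against 11.3% of all. A match describes the letters and is no evidence of binding. Ube2c fell with its list, from 144, 140 and 139 in media to 99.8, 101 and 106 CPM in gel (log2 −0.46, SE 0.06, adjusted p 0.000152).

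Genes induced by p53, the transcription factor that halts the cycle after DNA damage or other stress, went the other way. Of 39 tested, 22 were higher (56.4%), 2 lower (5.13%) and 15 not called, with a median of 0.35. Of all genes 11.1% were higher and 9.74% lower. With 1 library left out, 17 to 25 were higher. The 2 lower ones were not firm: Tigar lost its call without any 1 of the 6 libraries, and Ddb2 with total counts as the scaling. Trp53 itself had 139, 116 and 128 in media and 97.0, 109 and 108 CPM in gel (log2 −0.29, SE 0.09, adjusted p 0.0296). Its call was lost with total counts as the scaling and without any 1 of the 3 gel libraries.

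Several targets rose from very little. Ddit4l, an inhibitor of mTORC1 signalling, went from 0.0314, 0.147 and 0.154 in media to 1.82, 2.57 and 2.14 CPM in gel (log2 4.41, SE 0.36, adjusted p 5.37e-06). Epha2, an ephrin receptor, went from 0.534, 0.367 and 0.461 in media to 5.64, 5.29 and 7.05 CPM in gel (log2 3.69, SE 0.23, adjusted p 4.06e-07). Eda2r, a death domain receptor of the TNF receptor family, went from 0.283, 0.318 and 0.307 in media to 2.16, 2.65 and 3.09 CPM in gel. In each of these every gel library lay far above every media library. At a higher level, Plk2, a kinase of the centriole cycle (chromosome 13, 110395046 to 110400844 on GRCm38), rose from 4.78, 4.18 and 4.84 in media to 30.3, 34.5 and 38.6 CPM in gel, a 7.48-fold change. Perp, a membrane protein gene linked to desmosomes and cell death, had 3.58, 3.89 and 3.41 in media and 8.07, 7.83 and 8.67 CPM in gel (log2 1.18, SE 0.14, adjusted p 0.000101).

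A few of the targets that rose serve cell death. Survival and cell death genes as a list were balanced, with 6 of 36 higher and 6 lower (16.7% each) and a median of −0.05. Tnfrsf10b, the receptor for the death ligand TRAIL, had 9.89, 7.92 and 10.6 in media and 17.7, 17.7 and 19.7 CPM in gel, without overlap (log2 0.96, SE 0.11, adjusted p 9.16e-05). Pmaip1, which encodes the BH3-only protein NOXA, had 27.4, 32.2 and 29.6 in media and 44.4, 42.1 and 44.98 CPM in gel (log2 0.56, SE 0.08, adjusted p 0.000249). Fas rose by 0.35 (SE 0.08), and the apoptosis nuclease gene Aen by 0.38 (SE 0.09). Bbc3, which encodes PUMA, was at 0.40 (SE 0.11) and lost its call without any 1 of media libraries 2 and 3 and gel libraries 1 and 3. The death antagonist gene Bcl2 belongs to the survival and cell death list. It fell from 158, 154 and 152 in media to 116, 117 and 113 CPM in gel (log2 −0.42, SE 0.10, adjusted p 0.00774).

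Other targets serve growth control and repair. Sesn2, a sestrin that restrains mTORC1, rose by 0.69 (SE 0.12). Polk, a translesion polymerase gene, rose by 0.53 (SE 0.07). Of 53 genes of damage signalling and repair, 2 were higher (3.77%) and 21 lower (39.6%), against 11.1% and 9.74% of all genes. Without gel library 1, 11 were lower. The 2 higher ones were stress sensors: Gadd45a, with 1.56, 1.86 and 1.896 in media and 3.402, 3.39 and 3.27 CPM in gel, and Gadd45b (0.77, SE 0.09). Among those lower were the resection nuclease gene Exo1 (−0.51, SE 0.08) and H2ax (−0.49, SE 0.08), the histone that marks breaks.

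The promoter of Ddit4l is printed as that of the p53 target with the smallest p among those with a match to the p53 half-site. It lies on the plus strand (chr3:137623422-137623671), with the half-site in capitals.
Ddit4l: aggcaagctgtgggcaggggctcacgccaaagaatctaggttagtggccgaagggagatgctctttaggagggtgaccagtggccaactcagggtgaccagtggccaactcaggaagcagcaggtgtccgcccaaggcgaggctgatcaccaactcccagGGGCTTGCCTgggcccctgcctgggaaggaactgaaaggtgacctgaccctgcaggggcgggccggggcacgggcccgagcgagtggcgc
The half-site occurred in 30.0% of 40 promoters of 30 p53 targets and in 5.95% of all. Among genes called higher the share was 6.34%.

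**Figure D2:**
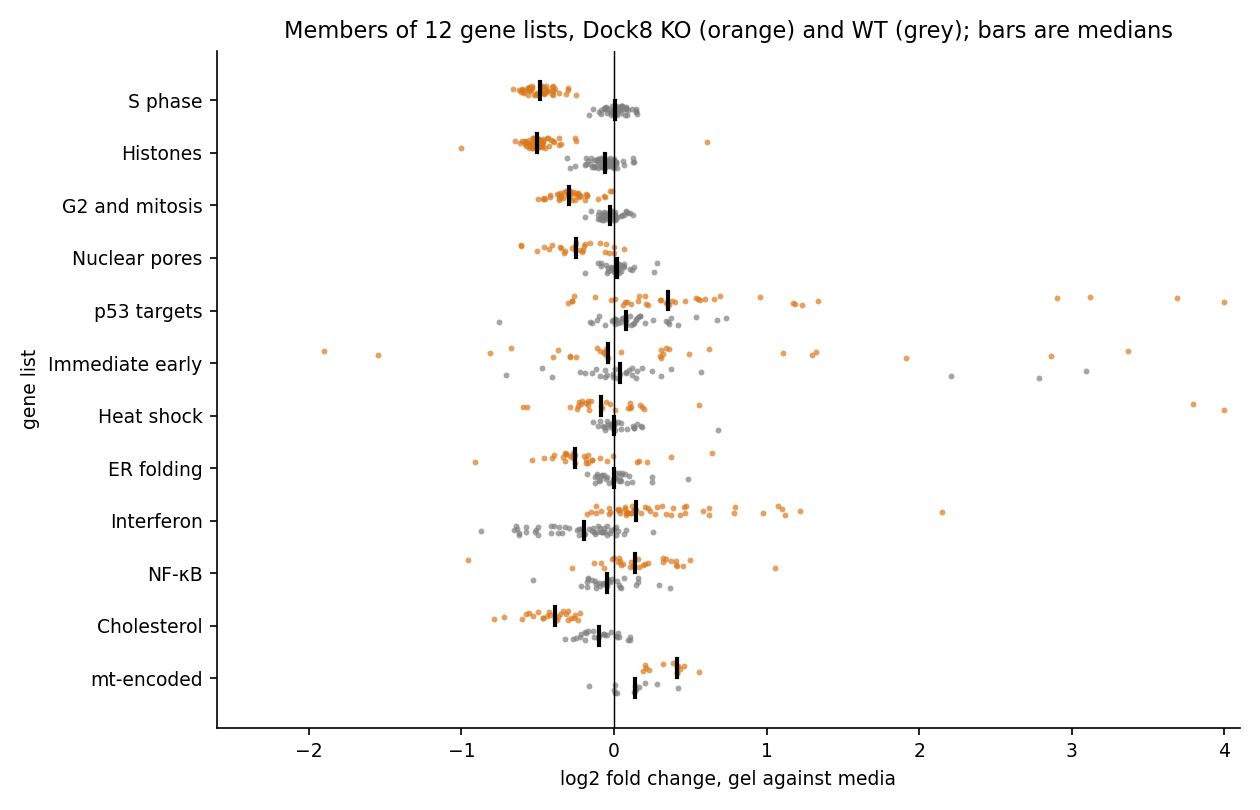
Log2 fold changes of gel against media for the tested members of 12 gene lists, each point 1 gene, Dock8 KO cells in orange and WT cells in grey, with a bar at the median of each; points past the right end are drawn at its edge. S phase genes and histones in Dock8 KO cells lie almost wholly below 0 (medians −0.48 and −0.51) and WT values lie around 0, with medians of 0.01 and −0.06.

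Immediate early genes split into those that rose and those that fell. These genes are transcribed within minutes of a stimulus, the FOS and JUN families forming the dimers of AP-1 and the EGR family reporting signalling through ERK. Of 31, 11 were higher (35.5%) and 4 lower (12.9%), against 11.1% and 9.74% of all genes. Without gel library 1 the counts were 7 and 3. Fos had 1.698, 1.198 and 1.69 in media and 5.59, 5.91 and 5.91 CPM in gel (log2 1.91, SE 0.19, adjusted p 3.34e-05). Jun had 24.3, 17.96 and 22.1 in media and 54.9, 51.3 and 55.3 CPM in gel (log2 1.32, SE 0.16, adjusted p 0.000178). Both showed all gel libraries above all media libraries. Fosb rose from 1.95, 1.91 and 1.59 in media to 19.2, 19.4 and 17.9 CPM in gel, the largest rise at log2 CPM 3 or above once predicted gene models are set aside. Klf4, a zinc finger factor linked to quiescence, went from 0.377, 0.4399 and 0.538 in media to 3.22, 3.17 and 3.36 CPM in gel (log2 2.86, SE 0.26, adjusted p 1.47e-05). Its relative Klf6 went from 174, 199 and 184 in media to 288, 282 and 287 CPM in gel (log2 0.62, SE 0.06, adjusted p 4.55e-05).

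Egr1, Egr2 and Ier2 of this list fell, as did Dusp6 of the MAP kinase feedback list. The pathways behind the split were not tested. Of 15 MAP kinase feedback genes 2 were higher (13.3%) and 4 lower (26.7%), against 11.1% and 9.74% of all genes. Without media library 1 or gel library 1, 2 were lower. Egr1 fell from 79.8, 72.8 and 73.3 in media to 20.99, 22.1 and 17.5 CPM in gel (log2 −1.90, SE 0.23, adjusted p 0.000314). Egr2 fell from 11.8, 8.68 and 8.66 in media to 3.402, 3.57 and 3.06 CPM in gel (log2 −1.55, SE 0.24, adjusted p 0.000708). Ier2, another immediate early gene, had 87.7, 83.8 and 76.8 in media and 51.5, 48.4 and 41.7 CPM in gel (log2 −0.81, SE 0.15, adjusted p 0.00297). The feedback phosphatase gene Dusp6, whose product dephosphorylates ERK, went from 67.2, 70.1 and 59.5 in media to 39.2, 41.8 and 33.2 CPM in gel (log2 −0.79, SE 0.11, adjusted p 0.000266). All 4 fell without overlap. In contrast, Dusp16, a phosphatase of JNK and p38, rose from 10.2, 9.996 and 10.9 in media to 15.8, 15.8 and 16.1 CPM in gel (log2 0.62, SE 0.08, adjusted p 0.000166). Nr4a1, a reporter of T cell receptor signalling, had 11.4, 12.3 and 9.46 in media and 10.2, 11.6 and 9.99 CPM in gel, with overlap and no call (adjusted p 0.867). Myc also overlapped, with 173, 174 and 156 in media and 126, 157 and 129 CPM in gel (adjusted p 0.206). The gene of the cytokine Tnf changed by −0.95 on the log2 scale (SE 0.12).

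**Figure D3:**
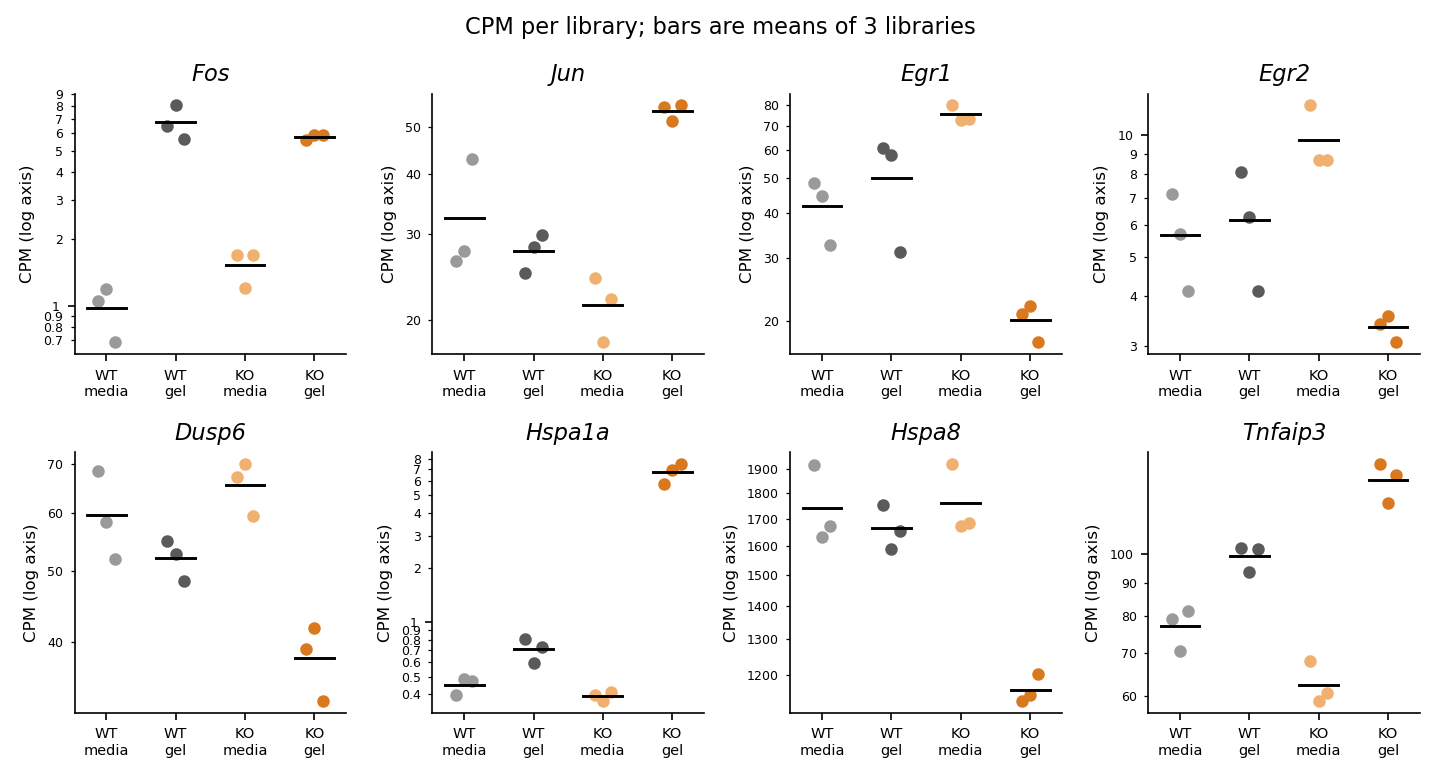
CPM on a log axis in each of the 12 libraries (points; bars are group means) for 8 genes: Fos, Jun, Egr1, Egr2, Dusp6, Hspa1a, Hspa8 and Tnfaip3, in the order WT media, WT gel, Dock8 KO media, Dock8 KO gel. Fos rises in gel in both genotypes, Jun, Hspa1a and Tnfaip3 are highest in Dock8 KO gel, and Egr1, Egr2, Dusp6 and Hspa8 are lowest there.

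Among heat shock genes, the pair that encodes HSP70 rose, and 2 abundant constitutive chaperone genes fell. Hspa1a and Hspa1b encode HSP70 and stay nearly silent until the heat shock factor HSF1 is freed by misfolded protein. Hspa1a went from 0.393, 0.367 and 0.410 in media to 5.78, 6.91 and 7.48 CPM in gel (log2 4.097, SE 0.18, adjusted p 1.31e-08). Hspa1b went from 0.582, 0.391 and 0.718 in media to 8.07, 7.63 and 7.85 CPM in gel (log2 3.79, SE 0.20, adjusted p 5.9e-08). The 3 gel libraries lay far above the media libraries in both. The genes lie side by side on chromosome 17 with nearly the same sequence, so reads may be exchanged between them. The co-chaperone gene Dnajb4 rose as well (log2 0.55, SE 0.08, adjusted p 0.0003704). Of the constitutive chaperones, Hspa8 had 1921, 1672 and 1684 in media and 1133, 1149 and 1203 CPM in gel (log2 −0.60, SE 0.08, adjusted p 0.000355). Hsp90ab1 had 1677, 1801 and 1740 in media and 1026, 1241 and 1245 CPM in gel (log2 −0.57, SE 0.09, adjusted p 0.000876). Per kilobase of exon, Hspa8 still stood at 270.2 CPM in gel against 2.27 for Hspa1a. Other inducible members were not called, with Dnajb1 at −0.17 (adjusted p 0.111) and Hsph1 at 0.20 (adjusted p 0.213). Of 28 members tested, 3 were higher (10.7%), 2 lower (7.14%) and 23 not called. These shares lie near the 11.1% and 9.74% of all genes. Without WT media library 1 or WT gel library 3, 4 were lower.

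The promoters of the HSP70 pair are printed since they differ at 3 of 250 bases and each holds the same match to GAANNTTC, the inverted pair of the heat shock element. Hspa1a (chr17:34972157-34972406) and Hspa1b (chr17:34959239-34959488) lie on the minus strand, and the match is in capitals.
Hspa1a: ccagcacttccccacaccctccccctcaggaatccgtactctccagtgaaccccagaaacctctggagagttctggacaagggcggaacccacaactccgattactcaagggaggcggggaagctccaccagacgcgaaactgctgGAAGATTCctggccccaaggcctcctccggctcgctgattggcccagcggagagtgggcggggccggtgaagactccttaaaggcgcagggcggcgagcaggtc
Hspa1b: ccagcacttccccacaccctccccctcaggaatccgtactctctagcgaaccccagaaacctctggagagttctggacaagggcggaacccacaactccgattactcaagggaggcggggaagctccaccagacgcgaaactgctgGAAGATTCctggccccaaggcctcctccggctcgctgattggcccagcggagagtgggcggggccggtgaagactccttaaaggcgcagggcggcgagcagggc
The pair occurred in 27.3% of 33 promoters of 22 listed chaperone genes and in 4.99% of all promoters, searched on both strands.

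Genes of protein folding in the endoplasmic reticulum fell while stress sensors of that compartment rose. Of 32 members 14 were lower (43.8%) and 2 higher (6.25%), against 9.74% and 11.1% of all genes, with a median of −0.26. The lower ones numbered 7 with total counts as the scaling and 5 without gel library 1. P4hb, a protein disulfide isomerase gene, went from 280.3, 278 and 272 in media to 189.5, 211 and 205 CPM in gel (log2 −0.46, SE 0.09, adjusted p 0.00360). Sdf2l1, a partner of the chaperone BiP, changed by −0.54 (SE 0.12). Prdx4, which removes peroxide in the compartment, changed by −0.91 (SE 0.11). The 2 that rose were the sensors. Ern1, which encodes IRE1α, had 10.2, 10.2 and 10.3 in media and 14.6, 17.7 and 15.6 CPM in gel (log2 0.64, SE 0.09, adjusted p 0.000398). Eif2ak3, which encodes PERK, had 114, 108 and 112 in media and 145, 144 and 145 CPM in gel (log2 0.37, SE 0.07, adjusted p 0.00356). The gene of BiP, Hspa5, was not called (−0.18, SE 0.08, adjusted p 0.123).

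Downstream of PERK and other kinases, ATF4 drives genes of amino acid supply and stress. Of 33 genes of this kind, 10 were higher (30.3%) and 4 lower (12.1%), against 11.1% and 9.74% of all genes. With 1 library left out 7 to 10 were higher and 1 to 6 lower. At log2 CPM 3 or above 5 of 21 were higher and 4 lower, with a median of −0.009. Ddit3, the stress factor CHOP, rose from 8.03, 6.26 and 8.46 in media to 11.8, 11.4 and 11.6 CPM in gel (log2 0.61, SE 0.11, adjusted p 0.00242). Ppp1r15a, whose product restarts translation, rose from 21.03, 17.4 and 19.99 in media to 25.4, 26.9 and 26.4 CPM in gel (log2 0.43, SE 0.10, adjusted p 0.0113). Genes that make cysteine or import its precursor rose from low levels. Cbs, the first enzyme of transsulfuration, went from 0.2201, 0.0733 and 0.0769 in media to 0.897, 1.17 and 1.07 CPM in gel. Cth, the second, went from 0.534, 0.293 and 0.436 in media to 1.34, 1.297 and 0.997 CPM in gel. The cystine transporter gene Slc7a11 went from 0.0943, 0.147 and 0.282 in media to 0.448, 0.898 and 0.773 CPM in gel. None of them overlapped between the groups. The serine synthesis gene Psat1 went the opposite way, from 135, 138 and 134 in media to 82.4, 95.7 and 95.6 CPM in gel (log2 −0.57, SE 0.10, adjusted p 0.00179). Atf4 itself was at 0.12 (SE 0.07, adjusted p 0.216). Of 31 antioxidant genes 7 were higher (22.6%) and 4 lower (12.9%), but only 1 was higher without gel library 3. Nqo1, a quinone reductase gene, had 2.42, 1.54 and 2.25 in media and 3.402, 3.34 and 4.83 CPM in gel and lost its call without that library.

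NF-κB feedback genes were higher. NF-κB is a transcription factor of inflammation that induces its own inhibitors. Tnfaip3, which encodes the inhibitor A20, went from 67.9, 58.97 and 60.7 in media to 138, 119.9 and 132 CPM in gel (log2 1.06, SE 0.08, adjusted p 3.19e-06). Nfkbia, which encodes IκBα, went from 53.1, 47.3 and 49.3 in media to 71.1, 60.8 and 67.8 CPM in gel (log2 0.42, SE 0.08, adjusted p 0.00358). Icam1, the ligand of LFA-1, went from 44.8, 38.2 and 43.2 in media to 57.6, 53.9 and 56.2 CPM in gel (log2 0.41, SE 0.08, adjusted p 0.00437). Cd274, which encodes PD-L1, belongs to the inhibitory and costimulatory receptor list and not to the NF-κB list. It had 16.6, 16.4 and 16.02 in media and 23.3, 22.8 and 24.5 CPM in gel (log2 0.52, SE 0.11, adjusted p 0.004303). In all 4 the media and gel libraries did not overlap. Of 30 NF-κB genes 7 were higher (23.3%) and 1 lower (3.33%), against 11.1% and 9.74% of all genes. At log2 CPM 3 or above 7 of 27 were higher, where 6.42% of all genes were. The lower member was Tnf, whose change is given above. Without gel library 1, 4 were higher.

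Interferon-stimulated genes encode antiviral effectors and are induced through ISGF3, which binds the interferon-stimulated response element. Of 51, 11 were higher (21.6%, against 11.1% of all genes) and the others not called, with a median of 0.15. At log2 CPM 3 or above 4 of 35 were higher, where 6.42% of all genes were. The count of 11 became 5 without Dock8 KO media library 1 and 18 without WT media library 3. Ifit1, which binds foreign RNA caps, had 1.93, 2.27 and 1.84 in media and 4.54, 3.97 and 4.66 CPM in gel (log2 1.12, SE 0.15, adjusted p 0.000299). Mx1, an antiviral GTPase gene, had 8.69, 8.896 and 9.79 in media and 13.2, 15.8 and 18.3 CPM in gel (log2 0.79, SE 0.12, adjusted p 0.000713). The chemokine gene Cxcl10 was scarcer, with 0.3301, 0.342 and 0.410 in media and 1.71, 1.297 and 1.77 CPM in gel. Other members were not called. Isg15, a ubiquitin-like modifier, had 0.9904, 1.22 and 0.999 in media and 1.13, 1.07 and 1.296 CPM in gel, with overlap (adjusted p 0.6197). Irf7 was at −0.12 (adjusted p 0.344). Cgas, the sensor of cytosolic DNA, fell from 17.4, 18.9 and 19.2 in media to 13.2, 14.5 and 13.98 CPM in gel (log2 −0.41, SE 0.07, adjusted p 0.00174).

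The promoter of Ifit1 holds 2 matches to the core of that element, a pair of GAAA blocks with 2 free bases between, searched on both strands. It lies on the plus strand (chr19:34640639-34640888), and capitals mark the matches.
Ifit1: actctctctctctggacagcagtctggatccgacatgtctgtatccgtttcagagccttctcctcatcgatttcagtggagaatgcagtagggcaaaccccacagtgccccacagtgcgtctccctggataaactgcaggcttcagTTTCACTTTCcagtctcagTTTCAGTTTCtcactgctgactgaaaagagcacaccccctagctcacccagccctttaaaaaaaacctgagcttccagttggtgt
The core was found in 51.1% of 45 promoters of 36 interferon-stimulated genes and in 2.70% of all. Among genes called higher the share was 3.08%.

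Most of the T cell receptor machinery, like most genes, did not pass the test. Of 37 receptor and signalling genes 2 were higher (5.41%) and 4 lower (10.8%), with a median of −0.01. All 37 lay at log2 CPM 3 or above, where 6.42% of genes were higher and 16.8% lower. The counts of this list reached lows of 0 and 2 when 1 Dock8 KO library was left out. Some effector and residency genes fell. Nkg7, needed for granule release, went from 130.2, 122 and 129.9 in media to 93.9, 96.1 and 99.9 CPM in gel (log2 −0.40, SE 0.07, adjusted p 0.00117), while the perforin gene Prf1 was not called (adjusted p 0.342). Id2, a regulator of effector differentiation, fell from 105, 119 and 106 in media to 74.01, 76.7 and 72.9 CPM in gel (log2 −0.56, SE 0.12, adjusted p 0.00443). Zfp683, which encodes the residency factor HOBIT, fell from 1.92, 1.34 and 1.95 in media to 0.659, 0.773 and 0.847 CPM in gel (log2 −1.19, SE 0.22, adjusted p 0.00229). Others rose. Ikzf2, which encodes HELIOS, went from 94.6, 109 and 99.6 in media to 167, 140.4 and 166 CPM in gel (log2 0.64, SE 0.08, adjusted p 0.000178). Rora, a nuclear receptor gene, went from 14.5, 16.7 and 16.4 in media to 25.9, 22.8 and 24.6 CPM in gel (log2 0.62, SE 0.11, adjusted p 0.00133). The factors Tox (0.19, adjusted p 0.262) and Eomes (−0.24, adjusted p 0.0656) were not called.

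Surface receptors and cytokine genes changed in both directions. The inhibitory receptor gene Ctla4 rose from 210.2, 250.1 and 207 in media to 314, 304 and 289 CPM in gel. Tnfsf4, or OX40L, a costimulatory ligand gene, rose from 3.02, 2.25 and 2.97 in media to 7.38, 7.96 and 9.57 CPM in gel (log2 1.59, SE 0.20, adjusted p 0.000179). Cd160, a receptor of cytotoxic lymphocytes, fell from 25.6, 21.5 and 24.8 in media to 16.9, 14.9 and 16.7 CPM in gel (log2 −0.57, SE 0.09, adjusted p 0.0006797). The growth factor gene Csf1 rose (log2 1.20, SE 0.24, adjusted p 0.00326), and the receptor gene Il15ra rose by 0.50 (SE 0.10).

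Genes that answer glucocorticoids or FOXO factors were higher in 9 of 26 (34.6%, against 11.1% of all genes), with a median of 0.20. At log2 CPM 3 or above 8 of 25 were higher, where 6.42% of all genes were. The count of 9 became 3 without gel library 1. Tsc22d3, the glucocorticoid-induced leucine zipper gene, went from 25.5, 25.8 and 23.5 in media to 51.2, 47.9 and 46.8 CPM in gel. The insulin receptor substrate gene Irs2 went from 28.6, 26.6 and 29.5 in media to 40.5, 41.1 and 40.9 CPM in gel (log2 0.53, SE 0.07, adjusted p 0.000324). Tef, a clock-controlled transcription factor gene, had 15.8, 15.1 and 15.8 in media and 27.7, 24.6 and 27.6 CPM in gel (log2 0.78, SE 0.07, adjusted p 1.08e-05).

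Genes that steer migration changed in both directions. Of 22 chemokine, lipid and egress receptor genes 4 were higher and 4 lower (18.2% each). Of 23 regulators of chemoattractant signalling 4 were higher (17.4%) and 3 lower (13%). Of all genes 11.1% were higher and 9.74% lower. Without gel library 1 the counts were 2 and 2 for the receptors and 2 and 1 for the regulators. RGS proteins shut off the G proteins of chemokine receptors. Rgs1 had 10.01, 10.5 and 10.9 in media and 20.7, 21.3 and 20.7 CPM in gel (log2 1.00, SE 0.09, adjusted p 9.46e-06). Rgs2 had 2.62, 2.44 and 1.74 in media and 6.28, 4.84 and 5.71 CPM in gel (log2 1.29, SE 0.17, adjusted p 0.000249). Both rose with no overlap. Of the inflammatory chemokine receptor genes, Ccr2 fell from 228, 273 and 268 in media to 172, 183 and 179.5 CPM in gel (log2 −0.53, SE 0.09, adjusted p 0.00157). Cxcr6, a receptor of tissue T cells, fell from 93.7, 95.5 and 96.04 in media to 69.8, 67.9 and 70.9 CPM in gel (log2 −0.45, SE 0.08, adjusted p 0.001999). The gut-homing receptor gene Ccr9 rose from 1.95, 1.03 and 1.97 in media to 7.78, 3.47 and 7.701 CPM in gel (log2 1.92, SE 0.44, adjusted p 0.01103). Of 30 integrins and adaptors 3 were higher (10%) and 7 lower (23.3%). At log2 CPM 3 or above 0 of 24 were higher and 7 lower, where 6.42% and 16.8% of all genes were. Without gel library 1, 1 was lower, and without gel library 2, 0 were higher. Itgal, the α chain of LFA-1, was at −0.20 (adjusted p 0.0539) and Itga4 at 0.16 (adjusted p 0.282).

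Guidance genes and a matrix gene also rose. Plxna1, a semaphorin coreceptor, had 6.52, 6.04 and 6.64 in media and 16.7, 21.4 and 20.5 CPM in gel. The ephrin gene Efnb2 had 0.707, 0.489 and 0.948 in media and 2.58, 2.44 and 2.24 CPM in gel. The slit receptor gene Robo3 had 0.299, 0.220 and 0.436 in media and 2.53, 3.14 and 2.84 CPM in gel, and the junction protein gene F11r had 0.755, 0.513 and 0.692 in media and 1.85, 2.07 and 1.97 CPM in gel. Every gel library lay above every media library in these 4. The matrix gene Fn1, or fibronectin, started from a still lower level, with 0.126, 0 and 0.102 in media and 0.686, 0.823 and 0.748 CPM in gel. The broad rise of the scarcest genes given above moves the same way, and its part in these changes was not tested. Each of the 5 kept its call after the olfactory receptor level was taken off, an alternative chosen after seeing the data. It takes the same level per exonic base off every gene and does not test that part.

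In the cytoskeleton, the fall of tubulin genes held under other scalings and that of actin genes did not. Of 20 tubulin and microtubule genes 8 were lower and 3 higher (0 higher without gel library 3). With total counts as the scaling 7 were lower, and with 1 library left out 6 to 8. Tuba1b, an α-tubulin, had 336, 322 and 328 in media and 195, 219.9 and 216 CPM in gel (log2 −0.64, SE 0.08, adjusted p 0.000132). Tubb5, the main β-tubulin of lymphocytes, had 2763, 2569 and 2676 in media and 1753, 1759 and 1874 CPM in gel (log2 −0.57, SE 0.07, adjusted p 0.000169). Of 39 actin filament genes 13 were lower (33.3%), but 1 with total counts as the scaling and 1 without gel library 1. Fmnl3, a formin that elongates filaments, kept its call under every scaling, with 40.6, 37.5 and 38.9 in media and 24.8, 29.4 and 29.5 CPM in gel (log2 −0.48, SE 0.08, adjusted p 0.000871). So did Coro2a, a coronin, with 109, 93.2 and 106 in media and 61.2, 68.9 and 70.1 CPM in gel. Cdc42, the GTPase that DOCK8 activates, had 447, 501 and 449 in media and 406, 417 and 411 CPM in gel. It lay below media in every gel library but was not called (adjusted p 0.0895). Of 24 DOCK factors, partners and Hippo kinases 2 were higher (8.33%), Dock8 and Dock2. Dock2 lost its call without any 1 of the 3 gel libraries.

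Among genes of the nuclear envelope, those of the pore fell in part and those of the lamina changed in both directions. Of 27 nuclear pore genes 14 were lower (51.9%), and 8 without gel library 1. Of 20 genes of the lamina and its links to the cytoskeleton 4 were higher (20%) and 7 lower (35%). Of all genes 11.1% were higher and 9.74% lower. Without gel library 1 the lamina counts were 1 and 6. Nup43 of the outer ring had 18.3, 19.4 and 18.4 in media and 11.4, 13.1 and 12.2 CPM in gel (log2 −0.61, SE 0.10, adjusted p 0.00114). Ndc1, a membrane anchor of the pore, changed by −0.61 (SE 0.12). Lmna, which encodes the A-type lamins, rose from 5.03, 6.09 and 5.28 in media to 12.8, 18.04 and 16.1 CPM in gel (log2 1.52, SE 0.22, adjusted p 0.0004501). Emd, the inner membrane protein emerin, was at −0.27 (SE 0.06) and lost its call without gel library 1. ESCRT-III reseals the ruptured envelope. Of 25 genes of it and of membrane repair 1 was called, Dysf, a plasma membrane repair gene, at 0.0157, 0 and 0.0256 in media and 0.369, 0.424 and 0.324 CPM in gel. Chmp7, the nuclear ESCRT adaptor, had 37.3, 36.2 and 35.3 in media and 35.3, 33.4 and 33.7 CPM in gel (adjusted p 0.414).

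Genes of lipid synthesis and uptake were lower in part. Of 25 cholesterol synthesis and uptake genes 14 were lower (56%, against 9.74% of all genes), with a median of −0.38. Without media library 2 or gel library 1, 6 were lower. The desaturase gene Scd2 had 407, 505 and 382 in media and 263, 297 and 278 CPM in gel (log2 −0.63, SE 0.13, adjusted p 0.00537). Fads1, a desaturase of polyunsaturated fatty acids, had 54.05, 52.6 and 54.3 in media and 35.6, 33.8 and 38.5 CPM in gel. Both fell without overlap.

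Oxidative phosphorylation draws its subunits from nuclear and mitochondrial genes. Of 78 nuclear genes 26 were lower (33.3%) and 1 higher (1.28%), where 9.74% and 11.1% of all genes were. The lower ones numbered 4 with total counts as the scaling, 3 without gel library 1 and 42 without WT media library 1. Cox5a, a subunit of complex IV, kept its call (log2 −0.46, SE 0.11, adjusted p 0.00805). Of 13 mitochondrially encoded proteins 3 were higher (23.1%), with a median of 0.41. The count was 1 without gel library 3 and 9 without media library 2. The complex IV gene mt-Co2 had 941, 1142 and 1096 in media and 1488, 1459 and 1720 CPM in gel (log2 0.55, SE 0.12, adjusted p 0.006697). Of 87 cytosolic ribosomal protein genes 7 were lower (8.05%), near the 9.74% of all genes. At log2 CPM 3 or above 7 of 85 were lower, where 16.8% of all genes were. The count of 7 became 0 without gel library 1 and 30 without WT media library 1. The nucleolar gene Npm1 fell from 548, 658 and 559 in media to 399, 394 and 424 CPM in gel (log2 −0.54, SE 0.08, adjusted p 0.000726). Of 24 glycolysis genes 3 were lower (12.5%) and 1 higher (4.17%). At log2 CPM 3 or above 3 of 22 were lower, where 16.8% of all genes were. These 3 calls were lost without any 1 gel library. The 1 higher was Ldhb, the lactate dehydrogenase of oxidative tissue, with 5.96, 5.94 and 6.56 in media and 9.099, 10.7 and 10.7 CPM in gel (log2 0.73, SE 0.14, adjusted p 0.00318).

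Several nuclear RNAs and the splicing kinase genes Clk1 and Clk4 were higher. Neat1, the scaffold RNA of paraspeckles, had 151, 156 and 137 in media and 302, 323 and 276 CPM in gel (log2 1.02, SE 0.13, adjusted p 0.000223). Kcnq1ot1, a chromatin-bound RNA antisense to Kcnq1, had 74.8, 87.1 and 70.2 in media and 150.4, 165 and 148 CPM in gel (log2 1.00, SE 0.18, adjusted p 0.00234). Pvt1, the noncoding neighbour of Myc, went from 17.8, 16.96 and 16.3 in media to 26.8, 29.1 and 27.1 CPM in gel (log2 0.70, SE 0.07, adjusted p 5.06e-05). Lncpint, a noncoding RNA linked to p53, went from 17.6, 18.9 and 19.1 in media to 34.7, 35.7 and 33.6 CPM in gel (log2 0.90, SE 0.15, adjusted p 0.00131). Malat1 had 1946, 2155 and 2236 in media and 3382, 2938 and 2799 CPM in gel and lost its call without any 1 of the 6 Dock8 KO libraries. The splicing kinase gene Clk1, known to keep introns in part of its transcripts, had 125, 135 and 139.7 in media and 224, 187 and 203 CPM in gel (log2 0.62, SE 0.13, adjusted p 0.00459). Its relative Clk4 had 34.5, 38.0 and 35.5 in media and 54.6, 49.6 and 50.4 CPM in gel (log2 0.52, SE 0.09, adjusted p 0.00118). Of 38 splicing genes 6 were higher (15.8%) and 4 lower (10.5%), against 6.42% and 16.8% of all genes at log2 CPM 3 or above. The counts were 3 and 2 without gel library 1. Among those lower was Hnrnpa1 (−0.46, SE 0.07).

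Of 47 chromatin genes 6 were higher (12.8%) and 10 lower (21.3%), and 6 lower without gel library 1. All lay at log2 CPM 3 or above, where 6.42% and 16.8% of genes were called. The methyltransferase gene Kmt2a rose from 307, 279 and 311 in media to 466, 469.6 and 466 CPM in gel (log2 0.64, SE 0.14, adjusted p 0.00695). Kmt2d, of the same family, rose by 0.60 (SE 0.13), and the demethylase gene Kdm5b by 0.58 (SE 0.07). Hmga1, a chromatin protein of proliferating cells, fell from 114, 111 and 104 in media to 62.9, 75.2 and 72.2 CPM in gel (log2 −0.65, SE 0.12, adjusted p 0.00281). Cbx5, which encodes HP1α, changed by −0.52 (SE 0.07). The maintenance methyltransferase gene Dnmt1 changed by −0.45 (SE 0.08).

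Markers of cells that a CD8 culture should lack were measured beside these changes. The 16 markers of neutrophils and mast cells summed to 14.2 to 21.8 CPM (unscaled) in gel and 6.86 to 11.1 in Dock8 KO media, and 5 of 7 tested were higher (2 without gel library 2). The 14 markers of erythroid cells and platelets summed to 16.7 to 37.0 CPM in gel and 8.31 to 10.9 in media, with 5 of 10 tested higher. The 21 markers of macrophages and dendritic cells summed to 18.2 to 23.7 CPM in gel and 13.3 to 15.2 in media, with 3 of 8 tested higher. These sums did not overlap. Every gel library lay above every media library for 7 of the 16, 6 of the 14 and 9 of the 21. Of the tested members 71.4%, 50% and 37.5% were higher, against 11.1% of all genes. All of them lay below log2 CPM 3, and of the 4497 genes below log2 CPM 0, 842 were higher. Of 12 tested genes of tissues outside the culture 3 were higher and 1 lower, and of 8 tested olfactory receptor genes 4 were higher. The neutrophil enzyme gene Mpo rose from 0.0786, 0.293 and 0.282 in media to 1.08, 1.22 and 1.17 CPM in gel (log2 2.50, SE 0.42, adjusted p 0.00121). Gata2, a factor of mast cells and progenitors, rose too (log2 2.26, SE 0.48, adjusted p 0.00504). Vwf, which encodes von Willebrand factor, rose from 1.24, 1.32 and 1.41 in media to 2.53, 5.56 and 4.68 CPM in gel (adjusted p 0.0403). The platelet chemokine gene Pf4 had 1.195, 2.004 and 1.84 in media and 2.27, 6.99 and 5.38 CPM in gel (adjusted p 0.0634). Of the neutrophil, erythroid and macrophage lists, 2 members had no counts in any of the 6 libraries, S100a9 and C1qa. The MHC class II genes Cd74 (1.85, 1.88 and 1.26 in media and 3.297, 3.39 and 4.14 CPM in gel) and H2-Eb1 (0.283, 0.538 and 0.384 in media and 1.58, 3.04 and 1.89 CPM in gel) were called higher. The class II gene H2-Ab1 overlapped, with 2.44, 3.64 and 1.67 in media and 1.53, 3.39 and 1.875 CPM (unscaled) in gel. The platelet integrin gene Itga2b had 2.798, 3.25 and 3.74 in media and 7.15, 11.4 and 10.1 CPM in gel. Markers were tested only where they passed the filter on low counts. Summed B cell markers (773 to 848 CPM in gel, 755 to 961 in media) overlapped, and so did those of stromal and endothelial cells, with no member called of 6 and 5 tested. The 6 markers of CD4 and regulatory T cells summed to 186 to 216 CPM in gel and 134 to 154 in media, with 3 higher and 1 lower. Most of that sum is Ikzf2, described above, and 1 was higher without media library 1 or gel library 3. The 10 markers of NK and γδ T cells summed to 31.9 to 39.6 CPM in gel and 40.2 to 41.3 in media, with 2 of 8 tested lower. Neither of these sums overlapped. The part of other cells in the results was not tested. In bulk RNA a change in the share of cells cannot be told apart from a change within cells.

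**Figure D4:**
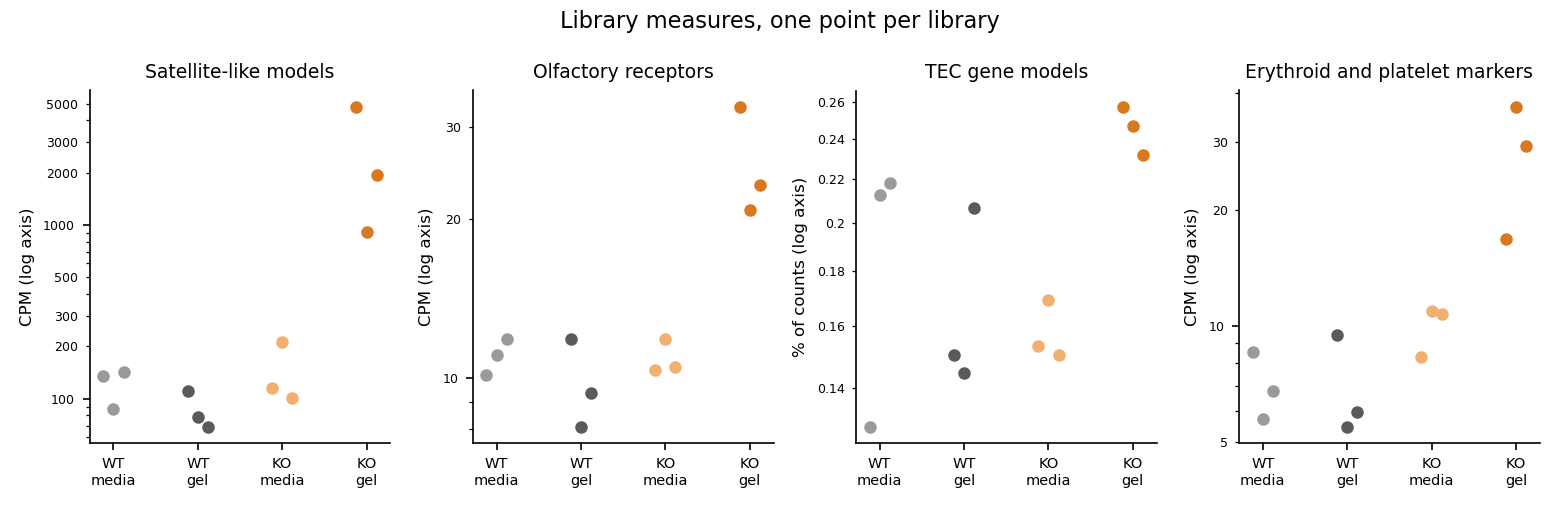
Library measures in the 12 libraries on log axes: CPM of satellite-like gene models, CPM of olfactory receptor genes, percent of counts in TEC gene models, and summed CPM of erythroid and platelet markers. The 3 Dock8 KO gel libraries are the highest in all 4 measures, with gel library 1 the highest for satellite-like models at 4807 CPM.

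The response to collagen was set against that of WT cells by the interaction term of the same fit. In WT cells 7 genes were called between gel and media. Deviations of same-numbered WT libraries from their group means correlated at 0.784, 0.236 and 0.793. With the replicate number as a block in WT cells 60 were called, and with the block in both genotypes 171. With no filter beyond 1 count 195 were called in WT cells. The response differed between the genotypes in 636 genes, more positive in Dock8 KO cells in 360 (1.89% of those tested) and more negative in 276 (1.45%). Of these, 346 and 273 were also called in Dock8 KO cells in the same direction. The count of 636 ranged from 178 without WT media library 2 to 1959 without WT media library 1. With the block in WT cells 2675 were called, 1269 more positive and 1406 more negative. The split depended on scaling and libraries. With total counts it was 449 to 24 and with upper-quartile scaling 427 to 131. Without the 2 libraries rich in sequences like ribosomal RNA, 28 genes were more positive and 1 more negative. S phase genes made up 37 of the 276, and their median change in WT cells was 0.01. Of the 50 S phase genes 4 were more negative with total counts, none without the rRNA-rich libraries, 14 without WT media library 2 and 49 with the block in WT cells. The median of their interaction terms was −0.49, −0.37 with total counts and −0.48 without the rRNA-rich libraries. Cdt1 had 63.8, 65.8 and 69.5 in WT media and 73.2, 76.2 and 70.8 CPM in WT gel (interaction −0.74, SE 0.11, adjusted p 0.00612). Of the p53 targets 11 were among the 360, and 4 were called without the rRNA-rich libraries. Plk2 had 5.95, 7.26 and 6.08 in WT media and 8.03, 9.87 and 7.25 CPM in WT gel (interaction 2.53, SE 0.18, adjusted p 1.19e-05). The WT gel libraries of Plk2 stayed far below the Dock8 KO gel libraries. Egr1 had 48.5, 44.5 and 32.6 in WT media and 60.7, 58.1 and 31.1 CPM in WT gel (interaction −2.15, SE 0.32, adjusted p 0.008795). Its Dock8 KO media libraries started above all WT media libraries. Jun had 26.5, 27.7 and 42.9 in WT media and 24.99, 28.3 and 29.8 CPM in WT gel (interaction 1.55, SE 0.23, adjusted p 0.00612). Of the interferon-stimulated genes 12 were among the 360 (1 without the rRNA-rich libraries, 3 without Dock8 KO media library 1, 23 with the block in WT cells), and their median change in WT cells was −0.20. Ifit1 had 2.34, 2.09 and 1.83 in WT media and 1.52, 1.43 and 1.13 CPM in WT gel (interaction 1.75, SE 0.23, adjusted p 0.00316).

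Without the rRNA-rich libraries Plk2 (adjusted p 0.000212) and Ifit1 (0.0363) were still called, while Cdt1 (0.0545), Egr1 (0.0515) and Jun (0.0515) were not.

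For other genes the difference was not called. Fos rose in WT cells too, with 1.05, 1.18 and 0.683 in WT media and 6.504, 8.04 and 5.69 CPM in WT gel (interaction −0.87, SE 0.28, adjusted p 0.101). Its smaller rise in Dock8 KO cells was called with the block in WT cells (adjusted p 0.0103). Tsc22d3 had an interaction term of 0.16 (SE 0.12, adjusted p 0.483). Klf4 changed by 2.21 in WT cells (interaction 0.66, SE 0.38). Osm, the cytokine oncostatin M, changed by −0.82 in WT cells and −0.84 in Dock8 KO cells (interaction −0.03, SE 0.13). Fos, Klf4, Tsc22d3 and Osm were called in WT cells, as was Fosb. Ctla4 changed by 0.47 (interaction −0.02, SE 0.11) and Bcl2 by −0.39 in WT cells (interaction −0.04, SE 0.14). With the block, Ctla4 (adjusted p 0.00383) and Bcl2 (adjusted p 0.00514) were called in WT cells too. A term that was not called does not show that the responses were alike.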

How the data were processed

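Bulk RNA-seq of 12 libraries was analysed from the table of counts per gene that the authors deposited, with no normalization. Per the labels' protocols, total RNA was depleted of ribosomal RNA (RiboCop) and made into libraries with KAPA HyperPrep. Per the submitters' processing notes, FastQC, MultiQC, HISAT2, SAMtools, Picard and featureCounts were used on GRCm38/mm10; their versions, the strand setting and the annotation are not given there. Depth was 28483064 to 61390702 counts per library, which limits the precision of genes with few counts.

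The counts were filtered with filterByExpr (19010 of 55291 genes kept), scaled with TMM and fitted with edgeR 4.0.16 (R 4.3.3) in 1 quasi-likelihood model over the 4 groups, so that the spread is shared by all 12 libraries. Contrasts were gel against media in Dock8 KO cells, the same in WT cells, and their difference, with Benjamini-Hochberg adjustment over all genes tested and calls at adjusted p under 0.05. The labels give 3 mice per group, so p-values measure the spread between these samples. Deviations of same-numbered media and gel libraries from their group means correlated at 0.784, 0.236 and 0.793 in WT cells. In Dock8 KO cells they correlated at −0.0451, 0.168 and 0.18. Deviations of 3 libraries are tied to each other by their shared mean, so these values cannot decide whether the numbers pair libraries. The labels do not say what a number shares. SE is the log2 change over the square root of F. CPM of marker sums, satellite-like models and olfactory receptors are not TMM-scaled.

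Gene types, coordinates and exon overlaps came from GENCODE M21 (GRCm38), which matched 96.4% of symbols. Promoters came from RefSeq (GRCm38.p6), with 13798 found for 10863 of the 19010 genes, and their 250 upstream bases were searched. The comparison, gene lists and tests were chosen with earlier results of these data known. Named genes are the 12 largest rises and falls without overlap and the 5 smallest p in each direction at mean log2 CPM of at least 3, up to 6 members of each list by p beside set ones, and the 8 highest and lowest differences between genotypes, predicted models, pseudogenes, receptor segments, ribosomal proteins and histones aside in all but the lists. Some genes that the rule covers are not reported here. Outside it, 19 genes were named after their values were seen: Aen, Ddb2, Dnajb1, E2f8, Eomes, Hmga1, Hsph1, Itga4, Kmt2a, Kmt2d, Mcm6, Nr4a1, Perp, Polk, Ppp1r15a, Slbp, Tigar, Tox and Trp53. The fit was tested on simulated data. Alternatives were DESeq2 1.42.0, limma-voom (limma 3.58.1), 2 other scalings, 2 other filters, a replicate block, a stricter threshold, removal of libraries or loci, and counts less diffuse reads.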

Additional observations from a re-analysis of the deposited data

Results flagged for a closer look

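The gel response of 76 of the 151 named genes differed between Dock8 KO and WT cells by the interaction term of the edgeR fit (adjusted p under 0.05), higher in Dock8 KO cells for 40 and lower for 36. Each value below is the log2 response of Dock8 KO cells minus that of WT cells.

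Among cell cycle and chromatin genes the term was −0.45 for Aurkb, −0.46 for Ccne1, −0.65 for Cdc6, −0.37 for Cdk1, −0.51 for Cdk2, −0.74 for Cdt1, −0.72 for Mcm6, −0.60 for Pcna, −0.45 for Slbp, −0.37 for Ube2c, −0.55 for Exo1, −0.71 for H1f1, −0.59 for Cbx5, −0.54 for Dnmt1 and −0.68 for Hmga1. Among nuclear envelope, tubulin and actin genes it was −0.43 for Emd, −0.65 for Ndc1, −0.63 for Nup43, −0.66 for Tuba1b, −0.56 for Tubb5, −0.49 for Fmnl3 and −0.48 for Coro2a. Among p53 targets and damage sensors it was 5.16 for Ddit4l, 2.58 for Eda2r, 2.95 for Epha2, 0.97 for Perp, 2.53 for Plk2, 0.57 for Pmaip1, 0.48 for Polk, 0.80 for Tnfrsf10b and 0.64 for Gadd45b. Among immediate early genes and MAP kinase phosphatases it was −2.15 for Egr1, −1.66 for Egr2, 1.55 for Jun, −0.59 for Dusp6 and 0.62 for Dusp16. Among chaperone and stress genes it was 3.42 for Hspa1a, 3.64 for Hspa1b, 0.56 for Dnajb4, −0.53 for Hspa8, −0.70 for Hsp90ab1, 0.76 for Ddit3, 0.61 for Ern1 and −0.90 for Prdx4. Among NF-κB and interferon genes it was 0.69 for Tnfaip3, 0.63 for Nfkbia, 0.53 for Icam1, 1.75 for Ifit1 and 0.77 for Mx1. Among receptors and regulators of T cells it was −0.59 for Ccr2, −0.45 for Cxcr6, −0.56 for Cd160, 0.88 for Cd274, −0.57 for Nkg7, 0.93 for Rgs1, 1.72 for Csf1, 0.64 for Il15ra, 0.48 for Ikzf2 and 0.62 for Tef. Among guidance, matrix and repair genes it was 1.93 for Efnb2, 2.60 for Robo3, 1.10 for Plxna1, 3.34 for Fn1 and 4.83 for Dysf. Among lipid and nucleolar genes it was −0.64 for Fads1, −0.82 for Scd2 and −0.57 for Npm1. Among noncoding RNAs and RNA-processing genes it was 1.13 for Neat1, 1.35 for Kcnq1ot1, 1.17 for Lncpint, 0.61 for Pvt1, 0.54 for Clk4 and −0.45 for Hnrnpa1. Among marker genes of other cells it was 1.41 for Cd74, 2.42 for H2-Eb1 and 1.30 for Itga2b. 

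Without WT gel library 2 and Dock8 KO media library 3, which are rich in loci resembling ribosomal RNA, 29 genes in all and 8 of these 76 were called for this difference. With total counts as the scaling 49 of the 76 were called, and with the replicate block in WT cells 76.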

How the results depend on the processing

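The count of genes called between gel and media in Dock8 KO cells was 3962. It was 6063 with no filter beyond 1 count, 2056 with only genes of mean log2 CPM of at least 3, 6159 in a fit of the 6 Dock8 KO libraries alone, 1650 at an adjusted p under 0.01 and 2050 without the 2 libraries rich in loci resembling ribosomal RNA. Leaving out 1 library at a time gave 2014 to 5243, lowest without Dock8 KO gel library 1. DESeq2 (4243), limma-voom (3899), total counts (2877), upper-quartile scaling (3893), no satellite-like, rRNA-like and mitochondrial loci (3889) and the counts less diffuse reads (3806, an alternative chosen after seeing the data) stayed within 1.5 times. No gene called in the reported fit was called in the opposite direction under any of these alternatives.

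For the difference between genotypes, 636 genes became 1149 with DESeq2, 1768 with no filter, 248 at mean log2 CPM of at least 3, 70 at an adjusted p under 0.01 and 29 without the rRNA-rich libraries, and 178 to 1959 with 1 library left out. The cause was not tested.

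With the number as a replicate block in both genotypes 7804 genes were called in Dock8 KO cells and 3431 for the difference. With the replicate block in WT cells only, an alternative chosen after seeing the data, 7117 and 2675 were called. Split by direction, the difference gave 449 higher and 24 lower with total counts and 427 and 131 with upper-quartile scaling.

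Of the 151 named genes, 138 to 151 kept direction and side of the threshold in each alternative that tests all of them. Those whose direction turned were not called. Cd3e was at 0.014 with total counts, 0.053 with upper-quartile scaling, 0.048 with only the genes at log2 CPM 3 or above, 0.042 without the rRNA-rich libraries and −0.058 to 0.026 with 1 library left out. Cd8a was at −0.033 with no filter and −0.076 to 0.067 with 1 library left out. Nr4a1 was at 0.013 with upper-quartile scaling, 0.0064 with the genes at log2 CPM 3 or above and −0.177 to 0.013 with 1 library left out.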
